A study of Mus musculus with 13 samples.

Results

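The genes described here are 10 members of the fibroblast growth factor (FGF) pathway in mouse back skin. They were taken by symbol from the 27998 genes of the deposited count tables: the ligand gene Fgf20, the receptor genes Fgfr1, Fgfr2 and Fgfr3, the ETS factor genes Etv4 and Etv5, and the feedback genes Dusp6, Spry1, Spry2 and Spry4. The rule names them by symbol and uses no measured value, though they were picked with earlier results of these data known. The series holds 13 single-cell RNA libraries from WT C57BL/6 mice and littermates that carry a germline deletion of Grhl3, a grainyhead-like transcription factor needed for the skin barrier. There were 2 WT and 2 Grhl3-/- libraries each of whole back skin at E14.5 and E16.5 and of epidermis at P0, plus 1 WT P0 library titled Chromium v1 that entered no test. By the study's methods each genotype had 1 male and 1 female per age, all Grhl3-/- embryos had spina bifida and the skin was taken away from the lesion, and P0 stands for E18.5 or birth. The deletion is carried by every tissue of these animals, so effects within the epidermis and effects passed on from other tissues cannot be told apart.

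FGF ligands bind receptor tyrosine kinases at the cell surface, and the receptors pass the signal through RAS and ERK to the nucleus. The ETS factors encoded by Etv4 and Etv5 are classical transcriptional targets of that cascade. Dusp6, a phosphatase that inactivates ERK, and the Sprouty proteins are induced by the same signal and damp it, so these genes are used as readouts of pathway activity. In skin, FGF20 made by the hair placode, the epithelial thickening from which a hair follicle grows, acts on the dermis below and is needed for the dermal condensate, the cell cluster that becomes the dermal papilla. FGFR2 in keratinocytes receives FGF7 and FGF10 from the dermis.

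By the GENCODE annotation (GRCm38), Dusp6 lies on chr10:99263231-99267489 (plus strand), Etv5 on chr16:22381309-22439719 (minus strand), Etv4 on chr11:101769742-101785371 (minus strand) and Fgf20 on chr8:40279166-40308331 (minus strand). Sequences from 250 bases before to 50 bases after the start were matched by symbol in a RefSeq table of 32851 promoters (GRCm38.p6), which held 8 entries for 6 members: Fgfr2, Fgfr3, Etv5, Dusp6, Spry1 and Spry2. They were searched on both strands for the ETS core CGGAAG, for GGAAGT, which overlaps it in CGGAAGT, and for the grainyhead core AACNGGTT. CGGAAG was held by 16.9% of all 32851 promoters, GGAAGT by 23.8% and AACNGGTT by 2.09%. Among the members, 2 of 8 entries held a motif, and both are shown because Dusp6 and Etv5 are response genes whose levels the results below turn on. Capitals mark the matches, and a match is a string of letters, not a bound site.
Dusp6 promoter, chr10:99262981-99263280, plus strand: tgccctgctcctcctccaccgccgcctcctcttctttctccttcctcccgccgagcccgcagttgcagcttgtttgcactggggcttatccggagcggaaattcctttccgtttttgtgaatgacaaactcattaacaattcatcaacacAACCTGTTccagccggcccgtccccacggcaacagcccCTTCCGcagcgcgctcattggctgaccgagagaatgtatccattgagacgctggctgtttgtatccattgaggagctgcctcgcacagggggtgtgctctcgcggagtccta
Etv5 second promoter, chr16:22438319-22438618, minus strand: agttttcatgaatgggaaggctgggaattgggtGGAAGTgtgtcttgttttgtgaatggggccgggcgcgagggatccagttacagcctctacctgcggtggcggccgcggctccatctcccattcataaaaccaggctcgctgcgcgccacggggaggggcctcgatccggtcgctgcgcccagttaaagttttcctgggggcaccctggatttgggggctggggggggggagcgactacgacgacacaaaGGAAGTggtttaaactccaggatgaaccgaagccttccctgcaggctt
In the Dusp6 promoter the AACNGGTT match begins 100 bases and the CGGAAG match 62 bases before the start. In the second Etv5 promoter GGAAGT begins 217 bases before and 3 bases after the start.

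The libraries held 97363 barcodes, of which 86507 passed the study's limits (5058 to 9157 per library), with a median of 7448 to 9976 unique molecular identifiers (UMIs, each standing for 1 captured RNA molecule) per cell. Pairs of libraries shared 0 to 114 kept barcodes, at most 1.57% of the smaller library. Cells were clustered at each age without the FGF genes, and clusters were named from marker lists, so each name below is a likeness, and up to 37.2% of cells per library stayed unnamed. At E14.5 the unnamed share was 36.8% and 37.2% in WT and 22.4% and 15.5% in the libraries labelled Grhl3-/-. Grhl3 itself was checked first. In suprabasal-like cells it stood at 86.7 and 107 UMIs per 1000000 UMIs of the class (CPM) in WT and 57.9 and 62.9 CPM in the libraries labelled Grhl3-/- at E14.5 (log2 difference -0.68, adjusted p = 0.247), at 41.5 and 37.0 against 22.3 and 14.3 CPM at E16.5 (-1.14, adjusted p = 0.080) and at 27.7 and 26.4 against 8.67 and 19.1 CPM at P0 (-1.14, adjusted p = 0.014; edgeR quasi-likelihood test, Benjamini-Hochberg). In basal-like cells at E16.5 the groups overlapped, with 7.16 and 9.25 CPM in WT and 7.60 and 7.31 CPM in the libraries labelled Grhl3-/- (-0.19, adjusted p = 0.89), so there Grhl3 did not set the labelled groups apart. Over whole E14.5 libraries it was 4.42 and 7.30 CPM in WT and 4.08 and 9.89 CPM in the libraries labelled Grhl3-/-, so at E14.5 Grhl3 did not set the labelled groups apart there. Whether the counted 3′ end lies outside the deleted part is not given in the sources used here. In all tests below n is 2 libraries per group, and a level is the UMI sum of a gene in a class in CPM of that class, compared below between classes and libraries for 1 gene at a time and not between genes.

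In WT skin at E14.5 the ligand gene Fgf20 and the response genes Etv4, Etv5 and Dusp6 had their highest means in placode and hair germ-like cells. Fgf20 stood at 35.7 and 45.8 CPM in the 2 WT E14.5 libraries in placode and hair germ-like cells (41 and 71 cells, led by Dkk4, Edar and Krt17), against 1.45 and 1.67 CPM in interfollicular epidermis (IFE) basal-like cells and 0 in suprabasal-like, condensate-like and fibroblast-like cells. After every cell was thinned to 2000 UMIs, 4.88% and 5.63% of the germ-like cells had an Fgf20 UMI. No cell did in the 11 other types apart from basal-like cells, 0 of 6653 cells, which allows up to 0.0451% of cells with a UMI at that depth, by counting error only, and sets no limit on cells that express the gene. Without thinning the mean share in germ-like cells was 20.7%, and 0.917% of blood-like cells of the first WT library had a UMI. At E16.5 the level was 28.7 and 28.4 CPM, and it differed between the clusters of the class: 48.5 and 36.9 CPM in the cluster led by Dkk4 and Bmp2, and 14.2 and 21.2 CPM in the cluster led by Shh and Lhx2. Both libraries gave that order.

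Among the response genes, Etv4 measured 64.2 and 80.8 CPM in WT E14.5 germ-like cells, Etv5 49.95 and 48.5 CPM and Dusp6 147 and 175 CPM. In basal-like cells of the same libraries they were 13.8 and 8.36, 9.42 and 13.4, and 15.9 and 12.6 CPM, and no library of either class crossed over. Thinned shares of cells with a Dusp6 UMI were 19.5% and 33.8% in germ-like cells against 3.70% and 5.29% in basal-like cells. Outside the epithelium Etv4 was 22.7 and 33.1 CPM in condensate-like and 30.2 and 20.2 CPM in endothelial-like cells, above the basal-like level. It was almost unseen in macrophage-like cells (1.66 and 1.26 CPM), a type that should lack it. Dusp6 was not particular to the epithelium: macrophage-like cells had 79.9 and 114 CPM, endothelial-like cells 80.9 and 88.9 CPM and Schwann-like cells 56.9 and 70.5 CPM. Etv5 was likewise high in melanocyte-like (49.0 and 42.5 CPM) and macrophage-like cells (39.3 and 47.8 CPM), and the germ-like and melanocyte-like libraries overlapped. Of the 10 members, 8 had their highest mean of the 3 epithelial classes in germ-like cells at WT E14.5, all but Fgfr2 and Fgfr3. Spry4 rested on 2 and 1 UMIs in germ-like cells, and the share of all genes highest in that class is not given. The classes come from the same cells, so the order of the classes is a description.

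**Figure D1:**
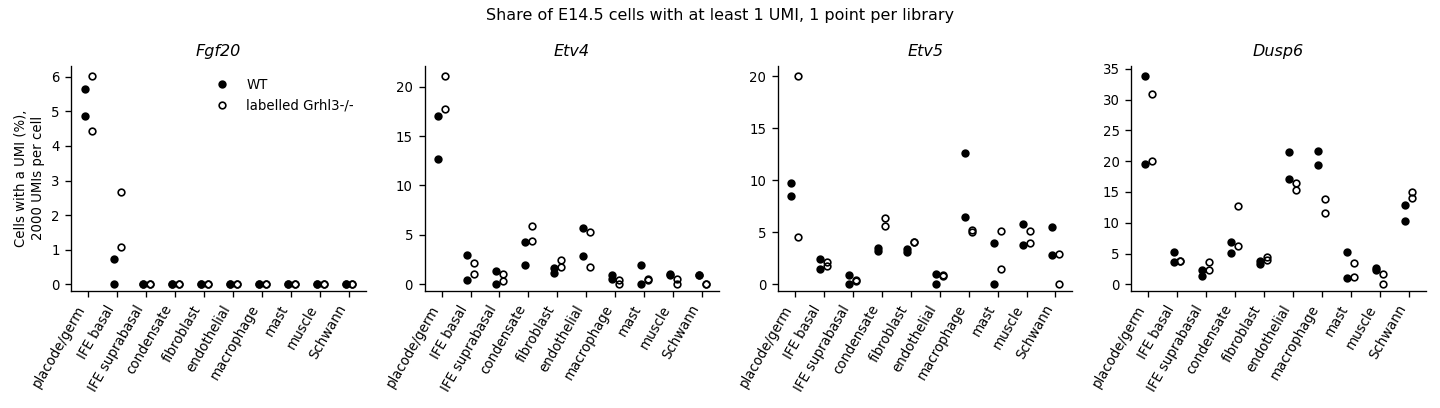
Share of E14.5 cells with at least 1 UMI of Fgf20, Etv4, Etv5 or Dusp6 (y axis, percent of cells after thinning to 2000 UMIs) by cell type (x axis), with 1 point per library, filled for WT and open for libraries labelled Grhl3-/-. Fgf20 sits at 4.88% and 5.63% in WT placode and germ-like cells and at 0 in the dermal, immune, muscle and Schwann-like types, while Dusp6 is also seen in endothelial, macrophage and Schwann-like cells.

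The receptor genes were highest in different classes. Fgfr1 led in the dermis: condensate-like cells had 250 and 323 CPM at WT E14.5 and 441 and 447 CPM at E16.5, fibroblast-like cells 170 and 183 and then 320 and 333 CPM, and IFE basal-like cells only 10.1 and 12.6 and then 16.03 and 14.1 CPM. Within the epithelium germ-like cells had 69.0 and 26.9 CPM at E14.5, 52.1 and 49.3 CPM at E16.5 and 110 and 59.5 CPM at P0. The outer root sheath, the outermost epithelial layer of the follicle, had more, with 117 and 124 CPM at E16.5 and 328 and 234 CPM at P0. Fgfr2, whose keratinocyte isoform binds FGF7 and FGF10, led in IFE basal-like cells at every age, with 159 and 153 CPM at E14.5, 144 and 156 CPM at E16.5 and 252 and 287 CPM at P0. It dropped to 33.4 and 32.4 CPM in suprabasal-like cells at E14.5, and to 41.6 and 35.8 CPM at P0. Fgfr3 was low at E14.5 (9.42 and 8.36 CPM in basal-like and 19.0 and 17.5 CPM in suprabasal-like cells) and reached 92.2 and 110 CPM in basal-like cells and 99.5 and 81.7 CPM in inner root sheath-like cells at P0. Counts per gene do not separate receptor isoforms.

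Spry1 and Spry2, which encode feedback inhibitors, had their highest E14.5 means in dermal classes. Spry1 was highest among the classes compared in condensate-like cells, 63.4 and 89.9 CPM at WT E14.5 and 96.4 and 103 CPM at E16.5, against 16.7 and 31.0 and then 19.0 and 25.4 CPM in germ-like cells. Spry2 stood at 60.6 and 53.4 CPM in fibroblast-like cells and 33.3 and 47.1 CPM in germ-like cells at E14.5. Spry4 was nearly silent in the epithelium, at most 4.76 CPM in germ-like cells, and was found in pericyte-like cells at 34.1 and 33.3 CPM at E14.5 and 46.3 and 48.2 CPM at E16.5. In the E16.5 condensate-like class 1 of 4 clusters, led by Bmp4, Cdkn1a, Sox18 and Gal, had the highest levels of 3 response genes: Dusp6 was 123 and 110 CPM there, against 6.32 to 36.2 CPM in the other 3 clusters. Etv4 was 30.2 and 44.5 CPM in it against 3.82 to 8.47 CPM, and Spry1 144 and 151 against 73.8 to 105 CPM, all over the 2 WT libraries. Spry2 went the other way, with 2.15 and 5.93 CPM in that cluster against 15.1 to 29.6 CPM in the others, on 1 and 2 UMIs. In the Grhl3-/- libraries Spry2 was 9.45 and 33.5 CPM in it, on 3 and 11 UMIs. That was the lowest of the clusters in the first of them and not in the second. The cluster led by Sox2, Hes5 and Bmp3 had more Fgfr1 instead, 664 and 633 CPM against 403 and 412 CPM.

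**Figure D2:**
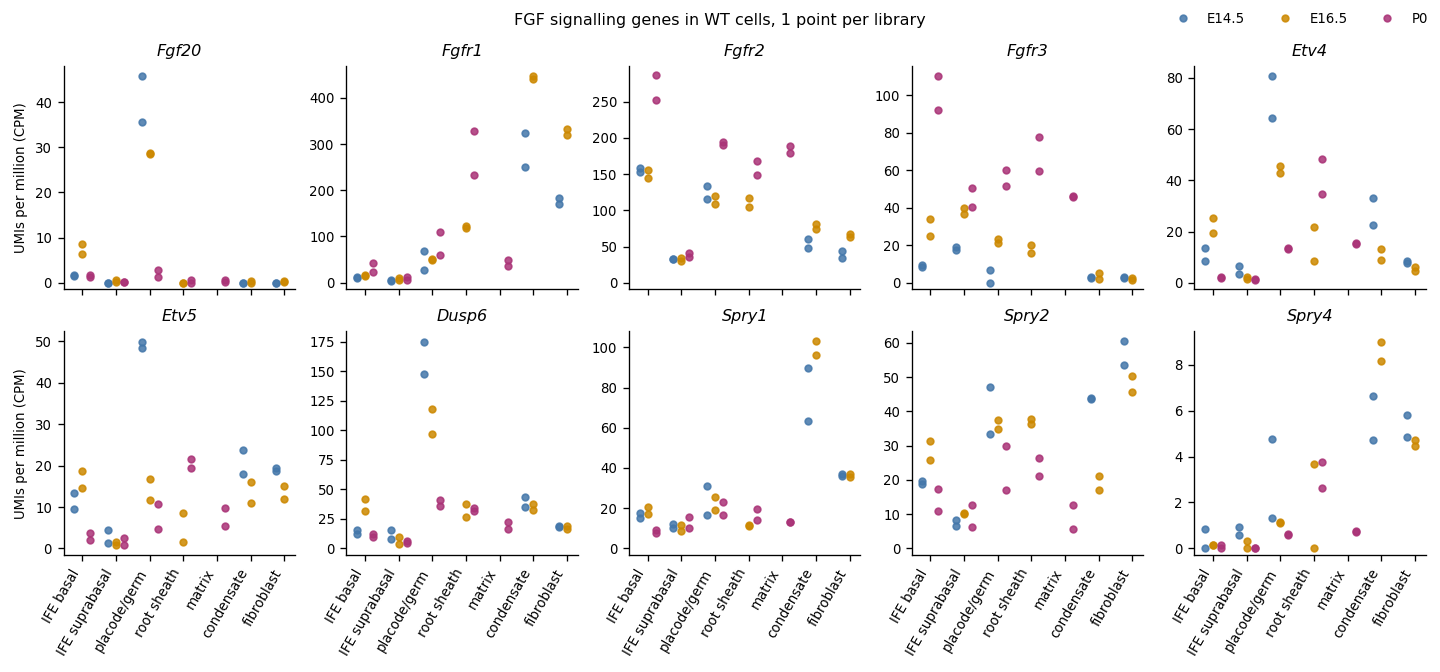
Level of the 10 FGF genes (y axis, CPM of the class in a library) in 7 classes of WT cells (x axis), with 1 point per library and the 3 ages in colours. Fgf20, Etv4, Etv5 and Dusp6 peak in placode and hair germ-like cells at E14.5, Fgfr1 in the condensate and the root sheath, Fgfr2 in basal-like cells, and Fgfr3 climbs with age.

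Between E14.5 and E16.5, with both ages taken as whole WT back skin, 13 of 43 member tests over 5 classes passed (8 higher and 5 lower at E16.5), beside 22.4% of all gene tests in these classes. Receptor genes rose in several classes. Fgfr3 was 3.61 times as high in basal-like cells (log2 difference 1.85 ± 0.32 SE, adjusted p = 0.000502), where 17.3% of genes were called. It also rose in suprabasal-like cells (1.34 ± 0.31, adjusted p = 0.00833; 24.4% of genes called) and in germ-like cells (2.35 ± 0.59, adjusted p = 0.019; 7.58% called), from 0 and 6.73 to 23.4 and 21.2 CPM. The suprabasal call was lost at 0.6 times the resolution (1.05, adjusted p = 0.0955) and without the second WT library of either age (1.25 each, adjusted p = 0.0945 for E14.5 and 0.0604 for E16.5). Fgfr1 rose in condensate-like cells by 0.55 ± 0.11 (adjusted p = 0.00178; 16.6% called) and in fibroblast-like cells by 1.04 ± 0.08 (adjusted p = 7.07e-06; 40.9% called), and Fgfr2 in fibroblast-like cells by 0.90 ± 0.12 (adjusted p = 0.000252), all on the log2 scale and by edgeR with Benjamini-Hochberg adjustment over all genes of the class.

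Over the same 2 days Etv4 rose in basal-like cells and fell in condensate-like and germ-like cells, and the call in germ-like cells was the least stable. In germ-like cells Etv5 fell to 16.8 and 11.8 CPM (log2 difference -1.81 ± 0.42, edgeR adjusted p = 0.0108) and Etv4 to 42.8 and 45.5 CPM (-0.78 ± 0.21, adjusted p = 0.0254), while Dusp6 went from 147 and 175 to 96.4 and 118 CPM, which did not pass. In basal-like cells Dusp6 rose from 15.9 and 12.6 to 31.4 and 41.9 CPM (1.51 ± 0.38, adjusted p = 0.0109) and Etv4 from 13.8 and 8.36 to 19.5 and 25.1 CPM (1.19 ± 0.35, adjusted p = 0.0237). The germ call of Etv4 was lost with thinned sums, with each of the 3 other clusterings (-0.14, adjusted p = 0.867, without integration) and without 6 of the 12 libraries taken 1 at a time. That of Etv5 was lost in 2 of the 3 other clusterings and without 3 of the WT libraries, and that of Fgfr3 in all 3 and without the first WT library of either age. Both basal calls were lost without the second WT library of either age and at 0.6 times the resolution (1.02, adjusted p = 0.0852, for Dusp6 and 1.16, 0.128, for Etv4). That of Etv4 was lost at a mitochondrial limit of 5% too (1.04, adjusted p = 0.0616). The difference between the classes was not tested. In condensate-like cells Etv4 fell from 22.7 and 33.1 to 8.79 and 13.1 CPM (-1.44 ± 0.29, adjusted p = 0.00138) and Spry2 from 43.5 and 43.8 to 21.0 and 17.2 CPM (-1.26 ± 0.36, adjusted p = 0.0218). That class held 1 cluster at E14.5 and 4 at E16.5, and with clusters drawn at 1.4 times the resolution Spry2 gave a log2 difference of 0.75 (adjusted p = 0.525). Etv4 no longer passed there either (-0.77, adjusted p = 0.426). The Spry2 call was also lost without either WT E14.5 library (-1.23 and -1.29, adjusted p = 0.132 and 0.0783) or the second WT E16.5 library (-1.13, adjusted p = 0.0878). Etv5 in fibroblast-like cells (-0.34 ± 0.12, adjusted p = 0.0471) completes the calls. It was lost by DESeq2 (adjusted p = 0.129), in the fit of these ages alone (0.0628), at a mitochondrial limit of 5% (0.0557) and without 7 of the 12 libraries. The value was -0.18 without the first WT E16.5 library. All 7 were E14.5 or E16.5 libraries. The P0 libraries held no fibroblast-like cells, so leaving them out could not change the fit. Without the second WT E14.5 library 6 of 46 member tests passed, and without the second WT E16.5 library 8 of 44.

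From E16.5 to P0 the 3 receptor genes rose, and Fgf20, Etv4 and Dusp6 fell, in both basal-like and germ-like cells. This order is that of the 2 tested WT libraries of each age. Over 4 epithelial classes 18 of 35 member tests passed (8 higher and 10 lower at P0), beside 46.7% of all gene tests. P0 tissue was epidermis after an overnight enzyme step and E16.5 tissue whole skin after a short one, so age and preparation cannot be told apart. In germ-like cells, where 48.8% of genes were called, Fgf20 went from 28.7 and 28.4 to 1.28 and 2.71 CPM, a log2 difference of -3.71 ± 0.29 (edgeR adjusted p = 2.24e-08). Etv4 fell there from 42.8 and 45.5 to 13.6 and 13.1 CPM (-1.66 ± 0.17, adjusted p = 5.14e-07) and Dusp6 from 96.4 and 118 to 36.1 and 41.0 CPM (-1.41 ± 0.23, adjusted p = 7.38e-05). Fgfr3 (1.39), Fgfr2 (0.81) and Fgfr1 (0.80) rose in the same cells. Fgfr1 stood at 110 and 59.5 CPM at P0, and without the first of these libraries the value was 0.31 (adjusted p = 0.244). Its call was also lost without the second WT E16.5 library (0.76, adjusted p = 0.08), with thinned sums and at 0.6 times the resolution. The WT mean of Fgfr3 was higher at P0 in macrophage-like cells too, 1.04 and then 15.4 CPM, and in melanocyte-like cells, 0 and then 30.3 CPM. The macrophage-like class was named from a list for macrophages or Langerhans cells, so it may hold different cell types in E16.5 skin and P0 epidermis. The part of free RNA in the rise of Fgfr3 was not tested. The cells that carried the germ name at P0 were led by Shh, Sp5 and Lhx2 in 3 clusters of 870 to 1689 cells. In the untested WT P0 library titled Chromium v1 Etv4 was 104 CPM in germ-like cells, above both E16.5 libraries. Its Fgfr2 was 97.9 CPM, against 103 to 138 CPM in the WT E16.5 germ clusters. Fgfr3 (25.8 CPM), Fgfr1 (68.5 CPM), Dusp6 (82.9 CPM) and Fgf20 (7.86 CPM) kept the direction there.

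In basal-like cells all 9 members tested passed, where 61.5% of genes were called, and Spry4 was too low to be tested. Etv4 fell from 19.5 and 25.1 to 2.28 and 1.96 CPM (-3.36 ± 0.34, adjusted p = 2.36e-07), Etv5 from 14.6 and 18.6 to 3.62 and 1.96 CPM (-2.54 ± 0.31, adjusted p = 2.14e-06), and Dusp6 from 31.4 and 41.9 to 11.9 and 9.95 CPM (-1.72 ± 0.31, adjusted p = 0.000115). Fgf20 (-2.33), Spry1 (-1.16) and Spry2 (-0.99) fell with them, and the Fgf20 call was lost at 0.6 times the resolution (-1.23, adjusted p = 0.107). Fgfr3 rose by 1.80, Fgfr1 by 1.17 and Fgfr2 by 0.87 on the log2 scale. In the untested WT P0 library titled Chromium v1 Fgfr2 was 100 CPM in basal-like cells, below both WT E16.5 libraries. Its Fgfr3 (51.9 CPM) and Fgfr1 (18.3 CPM) lay above them. In suprabasal-like cells 0 of 8 members passed by edgeR or by DESeq2, and 0 had an unadjusted p under 0.05 by edgeR, where 44% of genes were called. In the pooled hair follicle-like class (33.1% of genes called) Fgfr2 rose by 0.57, Fgfr3 by 1.88 and Spry2 fell by 1.12. That class is outer root sheath alone at E16.5 and pools several layers at P0. The Spry2 call was lost with thinned sums (-0.64, adjusted p = 0.262) and without either WT E16.5 library (-1.03 and -1.15, adjusted p = 0.1 and 0.0544). That of Fgfr2 was lost with thinned sums (0.33, adjusted p = 0.212) and without the first WT E16.5 library (0.53, adjusted p = 0.0518). Outer root sheath-like cells taken alone (a split made after seeing the data; 34.3% of genes called) went the other way from basal-like cells for the ETS factors: Etv4 went from 8.56 and 21.8 to 34.5 and 48.2 CPM (1.52 ± 0.33, adjusted p = 0.00175) and Etv5 from 8.56 and 1.46 to 21.7 and 19.5 CPM (1.98 ± 0.47, adjusted p = 0.00349). The rise of Etv4 there depended on how the cells were clustered: it was 0.14 without integration (adjusted p = 0.62) and 0.31 and 0.30 at 0.6 and 1.4 times the resolution (0.186 and 0.22). It was also lost without the first WT E16.5 library (1.02, adjusted p = 0.0683). That of Etv5 was lost without integration (0.59, adjusted p = 0.202) and without the second WT E16.5 library (1.28, adjusted p = 0.0816).

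Between the genotypes 16 of 130 member tests passed over the 3 ages and 6 classes, 8 higher and 8 lower in Grhl3-/-, beside 9.59% of all gene tests. At E14.5 it was 1 of 43, beside 0.654% of all gene tests. By class 0.00834% of genes were called in basal-like, 1.41% in suprabasal-like and 0.0791% in condensate-like cells, where 0 of 25 member tests passed by edgeR and by DESeq2 and 0 had an unadjusted p under 0.05 by edgeR. Fgf20 in germ-like cells was 35.7 and 45.8 CPM in WT and 22.8 and 34.2 CPM in the libraries labelled Grhl3-/-, and Etv4 64.2 and 80.8 against 105 and 99.3 CPM; neither passed, in a class of 41 to 133 cells a library where 0.00952% of genes were called. The 8 placode and hair germ markers summed in that class to 1105 and 1170 CPM in WT and 757 and 813 CPM in the libraries labelled Grhl3-/-. The call at that age was Spry1 in fibroblast-like cells, 37.2 and 36.2 CPM in WT and 62.2 and 49.1 CPM in the libraries labelled Grhl3-/- (log2 difference 0.58 ± 0.11, edgeR adjusted p = 0.0305; 1.52% of genes called). It was lost without the first Grhl3-/- or the second WT E14.5 library, without any 1 of the E16.5 libraries, with each of the 3 other clusterings and in the fit of E14.5 alone (adjusted p = 0.0854).

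At E16.5 the members called were Etv4 in 2 epidermal layers, 2 of 52 tests beside 0.97% of all gene tests. In basal-like cells Etv4 stood at 19.5 and 25.1 CPM in WT and 52.8 and 53.8 CPM in Grhl3-/- (1.20 ± 0.25, edgeR adjusted p = 0.0313; 0.8% of genes called). In suprabasal-like cells it was 2.05 and 1.37 CPM in WT and 12.2 and 20.9 CPM in Grhl3-/- (3.11 ± 0.50, adjusted p = 0.00664; 3% of genes called). The groups did not overlap in either layer. Germ-like cells had 42.8 and 45.5 against 61.6 and 62.8 CPM, which did not pass (0.152% of genes called). In the other classes 0 members passed by edgeR or DESeq2, where 0.0317% of genes were called in follicle-like cells (0.0587% in a fit of the outer root sheath-like cells alone), 0.475% in condensate-like and 1.33% in fibroblast-like cells, and the sole unadjusted p under 0.05 in these classes was that of Etv5 in fibroblast-like cells (-0.34, 12.04 and 15.2 CPM in WT, 11.4 and 9.86 CPM in Grhl3-/-). Macrophage-like cells had 1.77 and 2.03 CPM in WT and 0.272 and 0.239 CPM in Grhl3-/-, and the Grhl3-/- levels in both layers stood above these. Endothelial-like cells had 2.75 to 6.62 CPM in WT and 9.01 to 17.5 CPM in Grhl3-/-, which overlaps the suprabasal-like range. Pericyte-like cells had 1.12 to 3.25 and 4.44 to 4.90 CPM. Fibroblast-like cells went the other way (4.66 to 6.29 and 4.39 to 4.61 CPM). Condensate-like, melanocyte-like, muscle-like, mast-like, Schwann-like and blood-like cells overlapped. The part of free RNA was not tested. In the basal-like class the 8 placode and hair germ markers summed to 143 and 167 CPM in WT and 110 and 143 CPM in Grhl3-/-, and the 7 outer root sheath markers to 1137 and 1626 against 1747 and 1878 CPM. The 6 blood cell markers summed there to 2425 and 3977 against 6177 and 6228 CPM, and the part of these lists in the Etv4 difference was not tested. The basal call was lost when any 1 of the 4 E16.5 libraries was left out (adjusted p of 0.109 to 0.291). It was also lost with UMI sums thinned to the same total (1.03, adjusted p = 0.0611) and at 0.6 times the resolution (1.02, adjusted p = 0.262). In these basal-like cells Grhl3 itself overlapped between the labelled genotypes. The suprabasal call was lost without the second library of either genotype.

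At P0 13 of 35 member tests passed, 5 higher and 8 lower in Grhl3-/-, beside 33.8% of all gene tests, so the share of members called was close to that of genes at large. Etv4 was higher in Grhl3-/- in all 4 epithelial classes over the 2 tested libraries of each genotype. It measured 2.28 and 1.96 CPM in WT against 5.13 and 11.4 CPM in Grhl3-/- basal-like cells (1.74 ± 0.38, edgeR adjusted p = 0.00168; 39.5% of genes called) and 1.38 and 1.16 against 6.36 and 7.35 CPM in suprabasal-like cells (2.30 ± 0.49, adjusted p = 0.00447; 31.8% called). In germ-like cells it was 13.6 and 13.1 against 29.6 and 39.3 CPM (1.42 ± 0.15, adjusted p = 4.78e-06; 30.6% called), and the pooled hair follicle-like class gave 1.09 ± 0.17 (adjusted p = 0.000287; 32.8% called). Each of the 3 germ clusters had both Grhl3-/- libraries above both WT libraries for Etv4, for instance 45.6 and 50.5 against 20.2 and 19.3 CPM in the cluster led by Ung and Lhx2. The placode and hair germ markers summed in germ-like cells to 1363 and 1400 CPM in WT and 1058 and 1132 CPM in Grhl3-/-, and the outer root sheath markers in basal-like cells to 1174 and 1359 against 2168 and 2838 CPM, and their part was not tested. The calls in basal-like, suprabasal-like and germ-like cells held under every alternative analysis that could test them and every left-out library, and the follicle call was lost with thinned sums (1.06, adjusted p = 0.137). Macrophage-like cells, whose Etv4 UMIs serve as a reading of free RNA, had 4.01 and 2.93 CPM in WT and 5.03 and 11.8 CPM in Grhl3-/-. The basal-like and suprabasal-like levels of the same libraries were close to these. Etv4 in the 2 IFE layers at P0 was thus not set apart from background. In germ-like and outer root sheath-like cells Etv4 stood above the macrophage-like level in every library. Melanocyte-like cells had 12.04 to 13.36 CPM in the tested WT libraries, which overlapped germ-like cells, and 16.54 to 28.45 CPM in Grhl3-/-. T cell-like cells had 2.27 to 2.38 and 3.20 to 9.08 CPM, and sebaceous-like cells 2.64 to 5.22 and 7.04 to 12.43 CPM. The part of free RNA in the P0 Etv4 differences was not tested. The WT library titled Chromium v1, which entered no test, had 104 CPM in germ-like and 99.1 CPM in outer root sheath-like cells, above both Grhl3-/- libraries in each (29.6 and 39.3, and 57.8 and 67.7 CPM), so the order of the genotypes holds among the 4 libraries tested and not with that one.

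Etv5, a close relative of Etv4, did not pass: at P0 it was 10.8 and 4.61 CPM in WT and 7.66 and 12.4 CPM in Grhl3-/- germ-like cells, and no class passed at any age by edgeR (lowest adjusted p 0.254 at E16.5 and 0.26 at P0). Spry2 and Dusp6 were lower. Spry2 fell in basal-like cells from 17.3 and 10.9 CPM in WT to 4.47 and 8.70 CPM in Grhl3-/- (-1.30 ± 0.27, adjusted p = 0.00106), in germ-like cells from 29.8 and 17.0 to 9.72 and 12.9 CPM (-0.98 ± 0.24, adjusted p = 0.00444) and in the hair follicle-like class (-0.77 ± 0.21, adjusted p = 0.0106; edgeR). The WT library titled Chromium v1, which entered no test, was below both Grhl3-/- libraries, with 0.918 CPM in basal-like and 2.02 CPM in germ-like cells. Dusp6 fell in the hair follicle-like class, from 19.5 and 19.6 to 9.28 and 12.2 CPM (-0.73 ± 0.19, adjusted p = 0.00835; -0.61 and adjusted p = 0.0752 without the first Grhl3-/- library, -0.47 and 0.633 with thinned sums), and was 36.1 and 41.0 against 21.6 and 38.6 CPM in germ-like cells, where the libraries overlapped. Spry2 in macrophage-like cells was 10.8 and 2.74 CPM in WT and 1.61 and 3.55 CPM in Grhl3-/-, and the first WT library was the highest of the 4 in each of these classes. Without it Spry2 gave -0.54 in germ-like cells (adjusted p = 0.114) and -0.51 in follicle-like cells (adjusted p = 0.0854), and without the first Grhl3-/- library -0.79 in basal-like cells (adjusted p = 0.0529) and -0.71 in follicle-like cells (adjusted p = 0.0727). The germ call of Spry2 was also lost at 0.6 times the resolution (-0.38, adjusted p = 0.573), and the follicle call with thinned sums (-1.60, adjusted p = 0.0813).

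**Figure D3:**
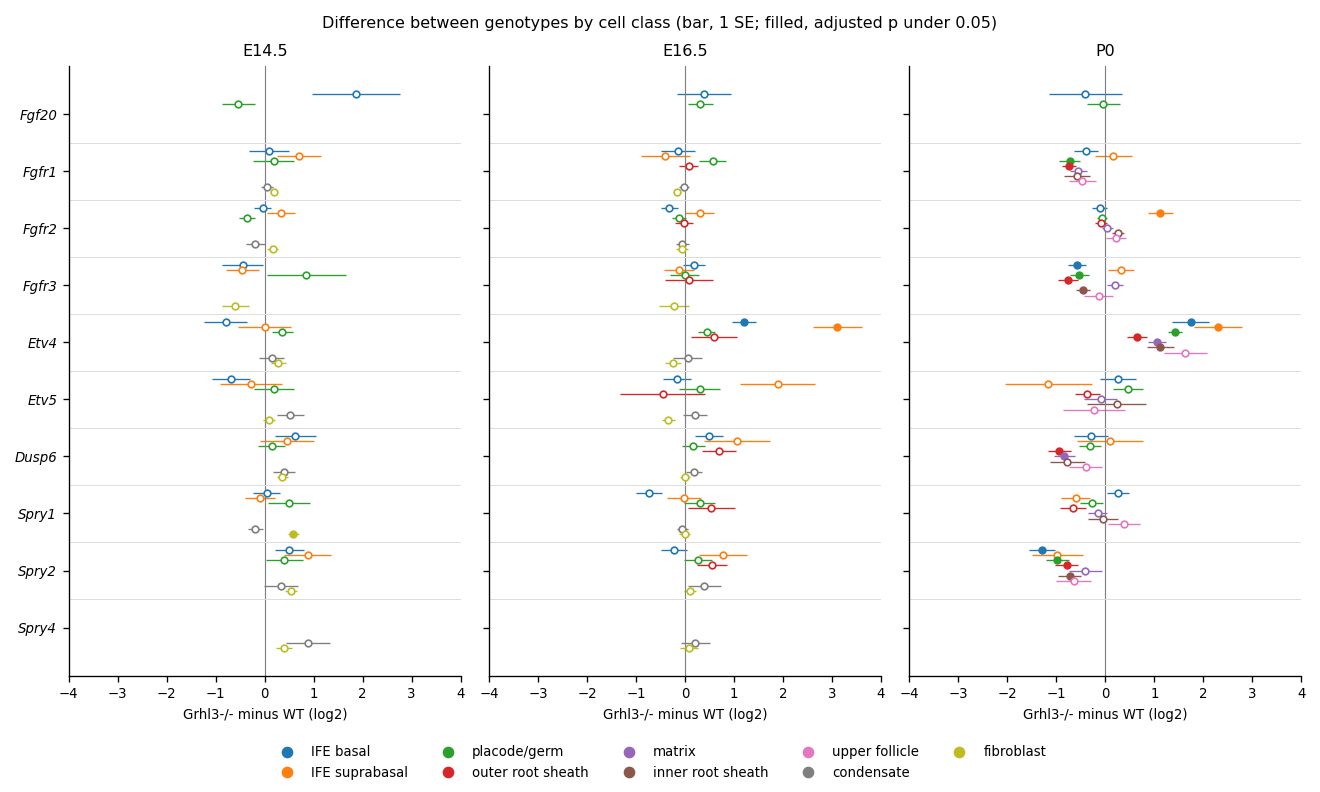
Log2 difference between Grhl3-/- and WT libraries (x axis; bar, 1 SE) for the 10 FGF genes (y axis) at each age, with cell classes in colours and filled points for an adjusted p under 0.05. At P0 Etv4 lies to the right in every class drawn, from 0.65 in the outer root sheath to 2.30 in suprabasal-like cells, and filled Spry2 and Dusp6 points lie to the left.

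Of the receptor genes Fgfr1 and Fgfr3 fell and Fgfr2 rose. Fgfr1 fell at P0 in germ-like cells, from 110 and 59.5 CPM in WT to 50.4 and 47.7 CPM in Grhl3-/- (-0.73 ± 0.22, edgeR adjusted p = 0.0167), and in the hair follicle-like class from 149 and 85.3 to 63.9 and 60.2 CPM (-0.78 ± 0.18, adjusted p = 0.00485). The first WT library was again the highest, in macrophage-like cells too (35.1 and 18.0 CPM in WT, 12.5 and 19.2 CPM in Grhl3-/-). Without it the germ value was -0.24 (adjusted p = 0.407), and without the second Grhl3-/- library -0.70 (adjusted p = 0.0918). The germ call was also lost by DESeq2 (-0.74, adjusted p = 0.0592), in the fit of P0 alone (-0.67, adjusted p = 0.0718) and with thinned sums (-0.41, adjusted p = 0.482). Fgfr3 fell in basal-like cells from 92.2 and 110 to 80.5 and 55.9 CPM (-0.58 ± 0.18, adjusted p = 0.0167) and in germ-like cells (-0.53 ± 0.19, adjusted p = 0.0379). Both calls were lost when single libraries were left out, with -0.29 in basal-like cells and -0.33 in germ-like cells without the second Grhl3-/- library, -0.40 in basal-like cells without the second WT library and -0.43 in germ-like cells without the first. The germ call of Fgfr3 was lost without 8 of the 12 libraries and in 6 alternative analyses (adjusted p = 0.0516 to 0.128), DESeq2 (0.104) among them. The basal call was lost in the fit of P0 alone (0.065) and at 0.6 times the resolution (0.0566). The untested Chromium v1 WT library had Fgfr3 at 51.9 CPM in basal-like and 25.8 CPM in germ-like cells. Each value lay below both Grhl3-/- libraries of its class. Its Fgfr1 in germ-like cells, 68.5 CPM, lay above both. Fgfr2 rose in suprabasal-like cells, from 41.6 and 35.8 to 119 and 60.8 CPM (1.12 ± 0.26, adjusted p = 0.00711). The 7 IFE basal markers summed to 3495 and 3574 CPM in WT and to 8766 and 24495 CPM in Grhl3-/- suprabasal-like cells at P0, and to 9914 and 10048 against 13664 and 14515 CPM at E16.5. Their part in the suprabasal differences of Fgfr2 and Etv4 was not tested. Without the first Grhl3-/- P0 library Fgfr2 gave 0.59 (adjusted p = 0.0946), and without the second WT library 0.96 (adjusted p = 0.0534). The call was also lost in the fit of P0 alone (1.08, adjusted p = 0.0506).

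The P0 follicle was split into its layers, a division made after seeing the data. Its calls for Etv4, Dusp6, Spry2 and Fgfr1 had the directions of the pooled class. Spry2 was not called in matrix-like cells, where thinned shares were 1.28% and 0.81% in WT and 1.34% and 1.21% in Grhl3-/-. In outer root sheath-like cells (25% of genes called) Dusp6 fell from 31.9 and 33.8 CPM in WT to 12.9 and 20.9 CPM in Grhl3-/- (-0.94 ± 0.23, edgeR adjusted p = 0.00637) and Fgfr1 from 328 and 234 to 164 and 161 CPM (-0.74 ± 0.14, adjusted p = 0.000791). Spry2 (-0.79) and Fgfr3 (-0.76) also fell and Etv4 rose there, from 34.5 and 48.2 to 57.8 and 67.7 CPM (0.65 ± 0.20, adjusted p = 0.0216). The outer root sheath of the newborn follicle surrounds the matrix, whose dividing cells build the hair. In matrix-like cells (14% of genes called) Etv4 rose by 1.05 and Dusp6 fell by 0.84, and in inner root sheath-like cells (28.9% called) Etv4 rose by 1.12, Spry2 fell by 0.73 and Fgfr3 by 0.46 on the log2 scale. In upper follicle-like cells (4.92% called) Etv4 was 7.89 and 4.64 against 10.0 and 26.5 CPM (adjusted p = 0.0628). Of these layer calls Fgfr1 in the outer root sheath held in all repeats, which used the tested libraries only. The untested Chromium v1 WT library had 121 CPM of Fgfr1 there, below both Grhl3-/- libraries. Its Fgfr3, 21.2 CPM, also lay below both (48.1 and 29.1 CPM), as did its Spry2 (0.342 CPM). Its Dusp6, 35.9 CPM, lay above both, as in the other WT libraries. Without the first WT P0 library Etv4 gave 0.40 (adjusted p = 0.211), Spry2 -0.65 (0.124) and Fgfr3 -0.59 (0.0991) in the outer root sheath. Without the first Grhl3-/- P0 library Dusp6 gave -0.64 (adjusted p = 0.099) and Spry2 -0.53 (0.189) there, and without the second Etv4 gave 0.53 (0.142) and Fgfr3 -0.47 (0.135). By DESeq2 the outer root sheath calls of Etv4 (adjusted p = 0.137), Spry2 (0.107) and Fgfr3 (0.0901) were lost, and without integration Fgfr3 gave -0.20 (0.362). With thinned sums those of Etv4 (0.184), Spry2 (0.14) and Dusp6 (0.0991) were lost. In matrix-like cells Dusp6 lost its call without any 1 of the 4 P0 libraries (-0.62 to -1.02) and Etv4 without 3 of them (0.89 to 1.07). In inner root sheath-like cells Spry2 lost its call without any 1 of the 4 (-0.63 to -0.84), Fgfr3 without 3 and Etv4 without 2, and each of the 3 by DESeq2. Over 11 alternatives Spry2 kept its inner root sheath call in 6, Fgfr3 in 8 and Etv4 in 10. In matrix-like cells Dusp6 kept its call in 8 of 11 and Etv4 in 10 of 11.

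**Figure D4:**
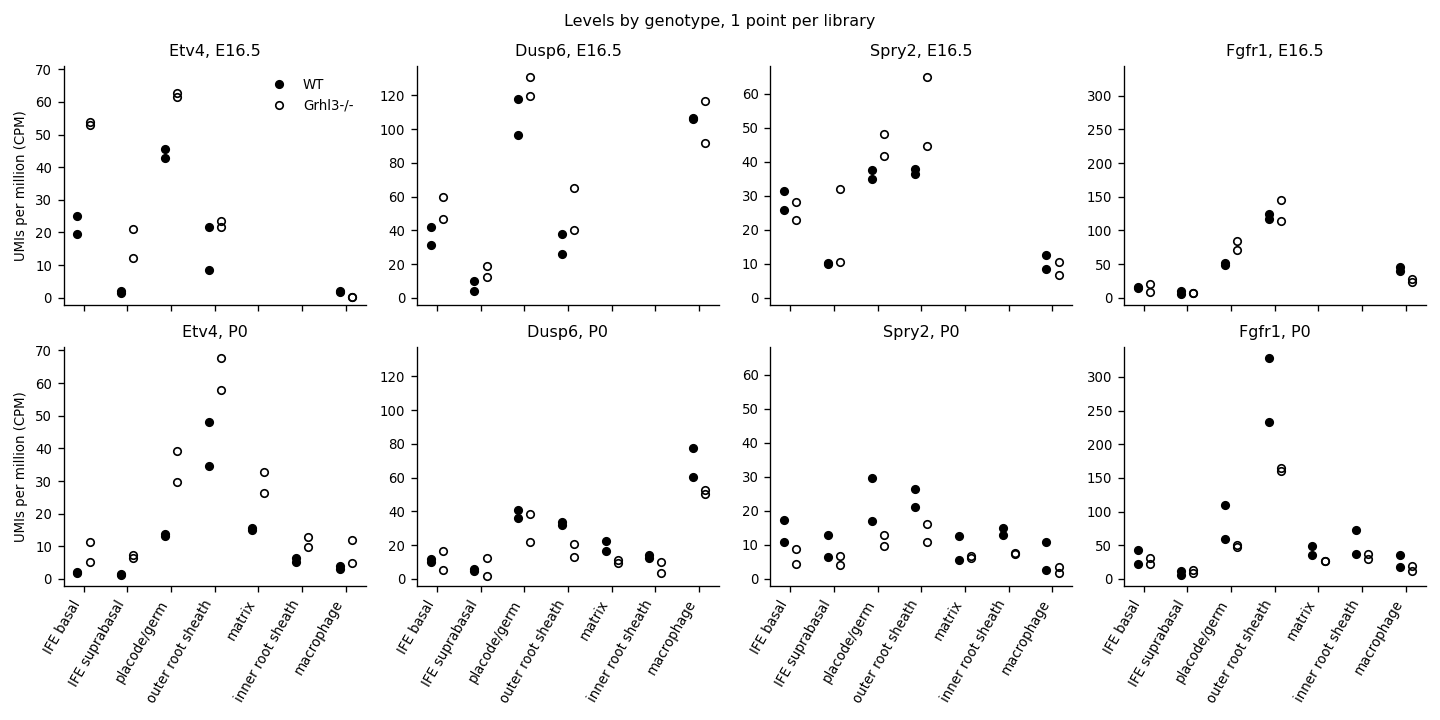
Levels of Etv4, Dusp6, Spry2 and Fgfr1 (y axis, CPM of the class) at E16.5 (upper row) and P0 (lower row) in 7 classes (x axis), with 1 point per library, filled for WT and open for Grhl3-/-. Open Etv4 points lie above filled ones in all 6 epithelial classes drawn at P0, open Dusp6 and Spry2 points lie below in the outer root sheath at P0 and above there at E16.5, and macrophage-like cells are drawn as a reading of free RNA.

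A test of whether the genotype difference itself changed with age, added after seeing the data, passed in 6 gene and class pairs, and each of these calls was lost in some of the repeats. From E16.5 to P0 it passed for 3 of 9 members in germ-like, 1 of 9 in follicle-like and 2 of 8 in outer root sheath-like cells. In basal-like cells 0 of 9 and in suprabasal-like cells 0 of 8 passed. From E14.5 to E16.5 no member passed in any class tested. In germ-like cells (8.31% of genes called) the Grhl3-/- minus WT value of Fgfr1 moved by -1.30 ± 0.35 from E16.5 to P0 (edgeR adjusted p = 0.0292), that of Spry2 by -1.24 ± 0.38 (adjusted p = 0.0483) and that of Etv4 by 0.98 ± 0.24 (adjusted p = 0.0155). In outer root sheath-like cells (6.72% called) that of Dusp6 moved by -1.63 ± 0.41 (adjusted p = 0.0225), from levels of 37.9 and 26.2 against 40.4 and 65.1 CPM at E16.5, and that of Spry2 by -1.34 ± 0.39 (adjusted p = 0.0424), from 37.9 and 36.4 against 44.7 and 65.1 CPM. The pooled follicle-like class (6.1% called) gave -1.39 ± 0.38 for Dusp6 (adjusted p = 0.0409). With each of 12 libraries left out in turn, Etv4 kept its call in 10 and Dusp6 in 9 in the outer root sheath and 8 in the pooled class. Spry2 kept it in 7 in the outer root sheath and 4 in germ-like cells, and Fgfr1 in 6. The follicle-like and outer root sheath-like classes held no E14.5 library. Leaving out an E14.5 library therefore could not change their fits, and these repeats count as kept. Their counts cannot be set beside those of germ-like cells. Without the first WT P0 library Fgfr1 gave -0.81 (adjusted p = 0.0989) and Spry2 -0.81 in germ-like (0.183) and -1.21 in outer root sheath-like cells (0.097). Without the second Grhl3-/- E16.5 library Dusp6 gave -1.16 in the outer root sheath (adjusted p = 0.262) and -1.06 in the pooled class (0.296). Without the second Grhl3-/- P0 library Etv4 gave 0.75 (0.0805). Over 5 other clusterings and cell filters each pair kept its call in 1 to 4. Spry2 in germ-like cells gave -0.06 (adjusted p = 0.983) at 0.6 times the resolution. Immediate-early genes moved in the same libraries. The 10 genes of a dissociation-stress list summed at P0 to 1255 and 1297 CPM in WT and 1818 and 2042 CPM in Grhl3-/- germ-like cells, and to 1056 and 1173 against 2220 and 2358 CPM in outer root sheath-like cells. At E16.5 they summed to 2935 and 3047 against 1719 and 1823 CPM in basal-like cells. The part of this list in the FGF differences was not tested.

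The other genes of the pathway were read from 4 lists of ligands, receptors and cofactors, adaptors, and ERK response genes, members included. At P0 the ERK response list split in Grhl3-/-: 4 of 12 genes tested rose and 3 fell in basal-like cells (39.5% of all genes called), 5 of 12 rose and 2 fell in suprabasal-like cells (31.8% called), and 2 of 10 rose and 2 fell in germ-like cells (30.6% called), the last close to the share of all genes. Ier3, an immediate-early gene that ERK induces, rose in each epithelial class, by 0.56 ± 0.20 in basal-like, 0.99 ± 0.20 in suprabasal-like, 1.11 ± 0.20 in germ-like and 1.07 ± 0.18 in follicle-like cells. Ccnd1, the cyclin that growth factors induce, rose by 0.77 ± 0.15 in basal-like cells and 0.73 ± 0.22 in suprabasal-like cells. The IFE basal markers were higher in Grhl3-/- suprabasal-like cells at E16.5 and P0. Their part in the suprabasal calls of these lists was not tested. Spred1, a feedback inhibitor related to the Sproutys, fell by 0.55 ± 0.17 in basal-like, 0.57 ± 0.15 in germ-like and 0.49 ± 0.15 in follicle-like cells, and Spred2 rose by 0.53 ± 0.14 in basal-like cells. Of the cofactors Fgfbp1, which frees stored FGF from the matrix, rose by 1.54 ± 0.16 in basal-like cells (edgeR adjusted p = 1.78e-06) and 0.58 ± 0.17 in germ-like cells. Of 9 adaptors tested in basal-like cells 3 fell, Sos1, Sos2 and Ptpn11, by 0.59, 0.63 and 0.34, which is below the 39.5% of all genes called there.

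At E16.5 the lists gave few calls between the genotypes: besides Etv4, Ccnd1 rose in suprabasal-like cells (1.27 ± 0.25, edgeR adjusted p = 0.0209) and Fgfbp1 fell in fibroblast-like cells (-1.82 ± 0.36, adjusted p = 0.0397). The Grhl3-/- libraries of that age held 203 and 178 basal-like cells, against 657 and 776 in WT. The part of free RNA from keratinocytes in the fibroblast-like Fgfbp1 call was not tested. Genes on the ligand list changed with age in the WT dermis. Of 11 tested in fibroblast-like cells from E14.5 to E16.5, 7 fell and 2 rose, where 40.9% of all genes were called. Fgf18 was at -4.20 ± 0.40 and Fgf7, which activates keratinocyte FGFR2, at -3.19 ± 0.24. Fgf12, counted on that list though not a secreted receptor ligand, was at -3.53 ± 0.32. Fgf10 fell in condensate-like cells by 1.35 ± 0.17 (edgeR adjusted p = 1.43e-05). Il17rd, an FGF receptor antagonist, fell with them in fibroblast-like cells (-2.50 ± 0.22), and Dusp4 rose (1.65 ± 0.26). In the outer root sheath Fgf9 was at 0 in both WT libraries at P0, after 13.1 and 22.0 CPM at E16.5.

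Genes whose WT profile was most like that of a member were looked up over 39 class-by-age means and 10870 genes (Pearson correlation of log2 levels across classes, a description, since classes of an age share libraries and are not replicates). Fgf20 was most like Dkk4 (r = 0.85), a placode Wnt inhibitor, then Sox15 and Mpped1 (0.73). Fgfr2 was most like Bcl11b (0.93), Irx2 (0.92) and Edaradd (0.91), Fgfr3 like Klrg2, Dsc3 and Limk2 (0.95), and Fgfr1 like Robo2 and Dixdc1 (0.84). The ETS factors and Dusp6 had weaker nearest genes: Rpap3 at 0.74 for Etv4, B3glct at 0.73 for Etv5 and Stx7 at 0.78 for Dusp6. Spry1 was nearest to Rbfox2 (0.82), Spry2 to Wnt5b (0.73) and Spry4 to Pear1 (0.84).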

How the data were processed

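Single-cell RNA from mouse back skin was measured in 13 libraries. For each library the authors deposited a matrix of UMI counts, not normalized, for 27998 gene IDs. The submitters' processing notes name Cell Ranger 1.3.1 and Seurat and the study's methods a later Cell Ranger release, both with the mm10 genome. The labels' protocol gives Chromium 3′ v2 chemistry, the methods name v1 and v2, and 1 WT P0 library is titled Chromium v1. It was left out of every test. Groups were taken from the labels (2 libraries each in 6 groups of genotype and age), which do not say which animal gave which library. The p-values rest on the spread between the 2 libraries of a group, pooled over all groups of a class in 1 fit.

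Cells with 600 to 4800 genes (E14.5 and E16.5) or 900 to 7700 genes (P0) and at most 10% mitochondrial UMIs were kept, as in the study. Each age was integrated and clustered with Seurat 5.3.0 (3000 variable genes without the FGF genes, 30 principal components, resolution 1, then 0.8 within groups). Clusters were named from marker lists by a rule set after the marker scores were seen: a mean score of at least 0.5, at least 3 markers each in 5% of cells, and an own marker among the top 10 genes by fold. UMIs were summed per library and class (at least 20 cells) and fitted with edgeR 4.0.16 (filterByExpr, TMM, quasi-likelihood test, all libraries of a class in 1 fit), with Benjamini-Hochberg adjustment over all genes of the class and a threshold of 0.05. SE is the log2 difference divided by the square root of F. The fit was tested on simulated data. For shares, cells of at least 2000 UMIs were thinned to that depth and shallower cells left out, and the limit for a share of 0 is 3 counts. DESeq2 1.42.0, R 4.3.3 and Python 3.11.15 served the alternatives and tables.

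Doublets were not removed, and removal of the top 5% of Scrublet scores was an alternative. Other alternatives changed the normalization, low-count filter, samples fitted, replicate block, integration, resolution, mitochondrial limit and depth, or left out 1 library. The members are named throughout, and other pathway genes were named where called; the genes most like a member by correlation were the top of the list. The members, gene lists and marker lists were chosen with earlier results of these data known.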

Additional observations from a re-analysis of the deposited data

Results flagged for a closer look

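The Grhl3-/- minus WT difference itself differed between E16.5 and P0 for 6 gene and class pairs (edgeR, Benjamini-Hochberg, a test added after seeing the data). In placode and hair germ-like cells it moved by -1.30 for Fgfr1 (adjusted p = 0.0292), by -1.24 for Spry2 (adjusted p = 0.0483) and by 0.98 for Etv4 (adjusted p = 0.0155) on the log2 scale. For Dusp6 it moved by -1.39 in the pooled hair follicle-like class (adjusted p = 0.0409) and by -1.63 in outer root sheath-like cells (adjusted p = 0.0225), which are the whole of the follicle class at E16.5. For Spry2 it moved by -1.34 in outer root sheath-like cells (adjusted p = 0.0424). The pairs were 3 of 9 members tested in germ-like cells, where 8.31% of all genes were called. They were 1 of 9 in the pooled follicle-like class (6.1%) and 2 of 8 in outer root sheath-like cells (6.72%). In basal-like cells 0 of 9 and in suprabasal-like cells 0 of 8 passed. None of the 6 passed with every library left out in turn: Spry2 in germ-like cells passed in 4 of 12, Fgfr1 in 6, Spry2 in outer root sheath-like cells in 7, Dusp6 in 8 in the pooled class and 9 in the outer root sheath, and Etv4 in 10. In the pooled class and the outer root sheath these counts include the E14.5 libraries. Those held no such cells, so leaving them out could not change the fit. Without the first WT P0 library Fgfr1 gave -0.81 (adjusted p = 0.0989) and Spry2 -0.81 in germ-like cells (adjusted p = 0.183). The preparation also changed between those ages, in both genotypes.

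The WT P0 library titled Chromium v1, which entered no test, had Etv4 at 104 CPM in germ-like cells (95% Poisson interval 97.8 to 111, counting error only), against 13.6 and 13.1 CPM in the other WT P0 libraries and 29.6 and 39.3 CPM in the Grhl3-/- libraries. Dusp6 was high in cells outside the epithelium and dermis that the comparisons do not use: the WT E16.5 mean was 98.7 CPM in endothelial-like and 106 CPM in macrophage-like cells.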

How the results depend on the processing

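Of 1079 values recomputed for the 47 calls, 971 kept direction and side of the threshold, 107 no longer passed and 1 reversed: Spry2 in condensate-like cells from E14.5 to E16.5, at 0.75 with resolution multiplied by 1.4. Where a left-out library held no cells of a class, the fit stayed as it was, and its value counts among the 971. This applies to P0 libraries in condensate-like and fibroblast-like cells and to E14.5 libraries in follicle-like cells. The number of calls that passed throughout includes such values too. The 15 calls in single follicle layers and the 6 changes between ages were recomputed apart from the 1079 values, with the same rule. Of the layer calls 3 held throughout, Fgfr1 in both comparisons and Fgfr3 from E16.5 to P0 in the outer root sheath, and each change between ages lost its call with some left-out library and with some clustering or cell filter. The untested Chromium v1 WT library had Fgfr1 at 121 CPM there, near the WT E16.5 levels of 117 and 124 CPM. Its Fgfr3 was 21.2 CPM, near the WT E16.5 levels of 15.9 and 20.4 CPM. In all, 22 of 47 calls passed under every alternative and left-out library. Between the genotypes 16 member tests passed, and 11 to 19 under the other settings except with UMI sums thinned to the same total, where 9 passed (8 of them shared) and fewer UMIs were tested. Leaving out 1 library gave 12 to 17 there, 6 to 15 for WT E16.5 against E14.5 (13 with all libraries) and 16 to 20 for WT P0 against E16.5 (18 with all libraries). The replicate numbers did not pair the samples (correlations of deviations of -0.071 to 0.06), and with the replicate block 17, 14 and 20 tests passed in the 3 comparisons, with 16, 13 and 18 shared. The number of members highest in germ-like cells was 8 of 10 on the TMM scale and for shares without thinning. Classes held 44492 cells, and 38805 to 44065 under other clusterings and cell filters. The outer root sheath split, the test between ages and these cell counts were chosen after seeing the data. Classes of few cells limit precision, above all the E14.5 germ with 41 to 133 cells a library.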

Other observations

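The library titled Chromium v1 differed from the other WT P0 libraries in other members too, given here as values of 1 library with 95% Poisson intervals that cover counting error only. Etv4 was 99.1 CPM (88.0 to 111) in its outer root sheath-like cells, where the other WT P0 libraries had 34.5 and 48.2 CPM and the Grhl3-/- libraries 57.8 and 67.7 CPM. Fgf20 was 7.86 CPM (6.13 to 9.94) in its germ-like cells, against 1.28 and 2.71 CPM. Spry2 was 2.02 CPM in its germ-like and 0.918 CPM in its basal-like cells, against 29.8 and 17.0 CPM and 17.3 and 10.9 CPM, so it lay below the Grhl3-/- libraries too (9.72 and 12.9 CPM and 4.47 and 8.70 CPM). Fgfr2 was 100 CPM in its basal-like cells, against 252 and 287 CPM.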
